A study of Rattus norvegicus with 5 samples.

Results

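Transcripts of apolipoproteins and of lipoprotein assembly were compared between the livers of 2 rat strains. The set holds 10 named genes, which are Apoa1, Apoa2, Apoa4, Apoa5, Apob, Apoc3, Apoe, Apoh, Apom and the microsomal triglyceride transfer protein gene Mttp. They were chosen by name, with earlier results of these data known, and mapped through the platform annotation of the array. A probe set was named for 6 of them, Apob, Apoe, Apoa2, Apoa5, Apom and Apoh, out of 7589 genes that had a probe set with a single symbol. For Apoa1, Apoa4, Apoc3 and Mttp no probe set was named, and these 4 were not analysed here.

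The livers came from 4-month-old males of 2 inbred rat strains fed standard chow. PD.SHR4 (PD.SHR4a in the series text) is a Cd36-deficient congenic strain, which by its name carries chromosome 4 material of the SHR strain on a PD background, and PD is its progenitor. Labelled cDNA of 8 rats per strain was pooled before hybridisation to Affymetrix Rat Exon 1.0 ST arrays, 2 for PD.SHR4 and 3 for PD. The arrays of a strain may therefore be technical repeats. Each p-value, standard error and interval below rests on the spread between arrays, not between rats. The sources used here do not give the limits of the SHR segment, and a congenic strain can differ from its progenitor at every gene of that segment, not at Cd36 alone.

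Lipoproteins carry triglyceride and cholesterol in plasma. The liver builds very low density lipoprotein around apolipoprotein B, which the transfer protein encoded by Mttp loads with lipid in the endoplasmic reticulum. Exchangeable apolipoproteins such as those of the A and C groups and apolipoprotein E then set how the particles are unloaded by lipases and taken up by receptors. Rat liver also edits part of its Apob mRNA through the deaminase Apobec1, which yields a shorter form of the protein.

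All 6 measured apolipoproteins were bright in both strains. Each lay above the upper quartile of every array (7.38 to 7.65 on the log2 scale of the deposited values), as liver markers such as albumin did. Of 13 measured hepatocyte markers, 6 had differences above 0 and 7 below, and none passed the test. Array medians lay between 5.21 and 5.38. Pairwise correlation over the whole table was 0.988 to 0.994 within a strain (4 array pairs) and 0.986 to 0.987 across strains (6 array pairs). The values carry no detection calls.

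None of the 6 apolipoproteins passed the test for a difference between the strains. The comparison was PD.SHR4 minus PD in limma, with p-values adjusted across the 8797 probe sets and called under 0.05. Across the array 82 probe sets passed, which is 0.932%, with 0.659% lower and 0.273% higher in PD.SHR4. The median log2 difference of the 6 genes was 0.0053, and that of all probe sets was 0.000197. The median of the 6 had no stable sign, at -0.019 without PD array 1 and 0.045 without PD array 2. Of the genes, 3 had values above 0 and 3 below. For 5 of the 6 the difference was smaller in size than the median over all probe sets, 0.155. A member would have needed a log2 difference of about 0.757 (Apoe) to 0.971 (Apom) to be called at the largest p that passed. The 95% intervals below (moderated fit, not adjusted for the number of genes) therefore say more than the calls about these arrays, not about rats.

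**Figure D1:**
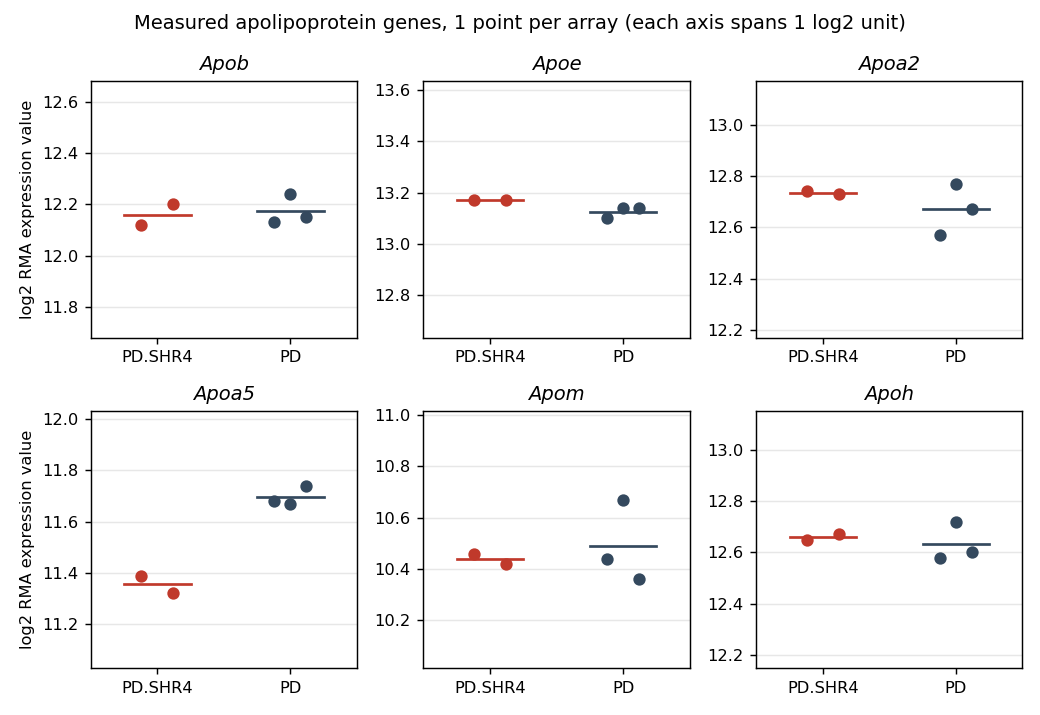
Each panel shows the log2 RMA expression value of 1 gene on the vertical axis, 1 point per array, with PD.SHR4 (2 arrays, red) on the left and PD (3 arrays, dark) on the right. Horizontal lines are strain means, and every axis spans 1 log2 unit. In Apoa5 the PD.SHR4 arrays lie clear of the PD arrays, at 11.32 and 11.39 against 11.67 to 11.74.

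Apob encodes the structural protein that stays with the particle from assembly to uptake. It measured 12.12 and 12.20 in the PD.SHR4 arrays, against 12.13, 12.24 and 12.15 in the PD arrays. The strains overlapped and the means were nearly level. The log2 difference was -0.015 ± 0.113 (SE), and its 95% interval in linear terms ran from 0.816 to 1.201 times the PD level (limma, adjusted p = 0.974). The array reads the summed Apob transcript, so edited and unedited mRNA were not separated. The sign of this difference changed after median centring of the arrays (0.039) and after a further quantile normalisation (0.052).

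Apoe, the ligand of the low density lipoprotein receptor family on remnant particles, measured 13.17 and 13.17 in PD.SHR4, against 13.10, 13.14 and 13.14 in PD. The strains did not overlap, but the gap between them was 0.033 log2 units. The log2 difference was 0.047 ± 0.108 (SE; limma, adjusted p = 0.912), and the interval ran from 0.860 to 1.24 times the PD level. Apoe lay within 0.068 of the brightest probe set of an array. Whether the arrays compress differences at that level was not tested. Apoe lies between Apoc1 and Tomm40 in gene order, and both were measured. Apoc1 encodes a small exchangeable apolipoprotein. Apoc1 measured 12.62 and 12.58 in PD.SHR4, against 12.64, 12.74 and 12.61 in PD, a log2 difference of -0.059 ± 0.113 (SE; limma, adjusted p = 0.896). Tomm40, which encodes a channel of the mitochondrial outer membrane, differed by 0.451 and did not pass (limma, adjusted p = 0.340).

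Macrophages also make Apoe. Of 8 measured macrophage and Kupffer cell markers, 7 lay below 0 and 0 passed, with a median log2 difference of -0.47. Their summed linear level was 4575 to 4726 in the PD.SHR4 arrays, against 5456 to 6199 in the PD arrays, and all 8 exceeded the lower quartile on at least 1 array. With array weights, a fit that called 819 of all 8797 probe sets, 6 of the 8 passed. Among the 8 markers Clec4f lay near 0 at -0.079 and Lyz2 above it at 0.163. The part of macrophages in the Apoe value was not tested. In tissue RNA, fewer cells of a type and less RNA per cell cannot be told apart.

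Apoa2, a main protein of high density lipoprotein, measured 12.74 and 12.73 in PD.SHR4, against 12.57, 12.77 and 12.67 in PD. Both PD.SHR4 values lay inside the PD range. PD.SHR4 minus PD was 0.065 ± 0.120 (SE; limma, adjusted p = 0.887), with an interval of 0.853 to 1.28 times the PD level. Without PD array 1 it was 0.015, and without PD array 2 it was 0.115. In RefSeq gene order (assembly GRCr8) a single gene, Tomm40l, separates Apoa2 from Nr1i3, the xenobiotic receptor CAR. Nr1i3, chosen here after its value was seen, rose by 1.84 on the log2 scale (limma, adjusted p = 0.0392). Its adjusted p in the other fits is not given here. Without variance shrinkage 2 probe sets were called in the whole table. On the other side of Apoa2 the nearest measured gene, B4galt3, differed by -0.137 and did not pass (limma, adjusted p = 0.797).

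Apom, a lipocalin that carries sphingosine phosphate on high density lipoprotein, had the lowest probe set values of the 6, which is no order of transcript amounts. It measured 10.46 and 10.42 in PD.SHR4, against 10.44, 10.67 and 10.36 in PD. PD array 2 stood highest and the other arrays lay close together. That array was also highest for Apoa2, Apob and Apoh. Over all probe sets its median was 5.378, against 5.207 to 5.265 in the other arrays. On the log2 scale the strains differed by -0.053 ± 0.138 (SE; limma, adjusted p = 0.926), with an interval of 0.762 to 1.22 times the PD level. Without PD array 2 the difference was 0.038, and after median centring it was 0.000703. Bag6 and G4, the measured genes on either side of Apom, differed by 0.073 and -0.007.

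Apoh, beta-2-glycoprotein I, binds phospholipid surfaces and is the main target of antiphospholipid antibodies in humans. It measured 12.65 and 12.67 in PD.SHR4, against 12.58, 12.72 and 12.60 in PD. The PD.SHR4 values again lay inside the PD range, and without PD array 1 the log2 difference was 0.0001. Here PD.SHR4 minus PD was 0.025 ± 0.114 (SE; limma, adjusted p = 0.959), and the interval ran from 0.837 to 1.24 times the PD level. Over Apob, Apoe, Apoa2, Apom and Apoh together, the 5 intervals lay between 0.762 and 1.28 times the PD level.

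Apoa5, which in mice and humans lowers plasma triglyceride by helping lipoprotein lipase act on particles, had the largest difference of the 6. It measured 11.39 and 11.32 in PD.SHR4, against 11.68, 11.67 and 11.74 in PD. Every PD.SHR4 array was below every PD array, with a gap of 0.276, wider than the spread within either strain (SD 0.049 in PD.SHR4, n = 2, and 0.038 in PD, n = 3). The log2 difference was -0.339 ± 0.111 (SE), a level 0.790 times that of PD, with a 95% interval of 0.655 to 0.954. It did not pass the test (limma, unadjusted p = 0.0226, adjusted p = 0.256). At the unadjusted threshold of 0.05, 13.8% of all probe sets pass, and 1 of the 6 apolipoproteins did. The strains did not overlap in 31.9% of all probe sets, and in 2 of the 6 genes, Apoa5 and Apoe. Among the 410 probe sets at least as bright as Apom, a limit chosen after the values were seen, 52.4% did not overlap and 0.976% were called.

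**Figure D2:**
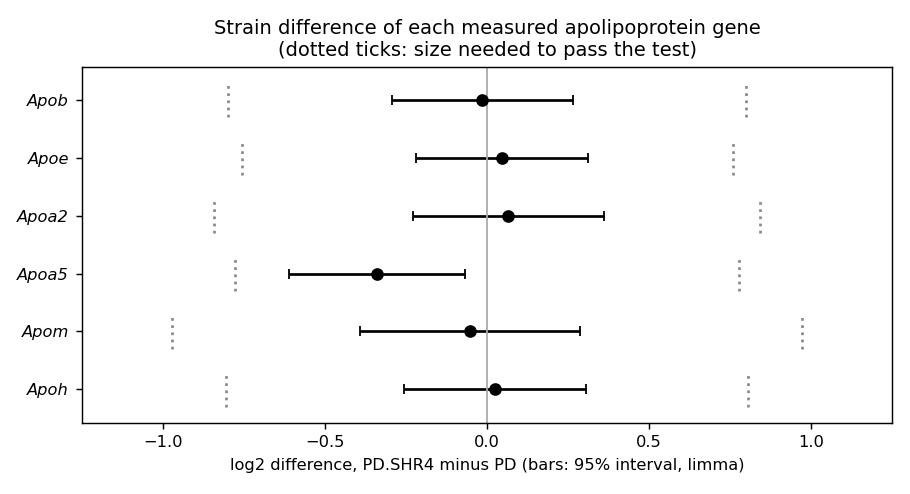
Log2 difference (PD.SHR4 minus PD) of each measured apolipoprotein on the horizontal axis, with 95% intervals from limma as bars. Dotted ticks mark the size that would have been called. The interval of Apoa5, -0.611 to -0.067, lies below 0 and its lower end falls short of the tick, while the other 5 intervals cover 0.

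Apoa5 kept its direction in all 13 alternative fits, from -0.374 to -0.286, and adjusted p ran from 0.0437 to 0.782. It passed only with array weights estimated from the data, a setting that raised the calls over all probe sets to 819. Leaving out an array could not turn the direction, because no PD.SHR4 array reached the PD range. Variance shrinkage, removal of dim probe sets and averaging of probe sets could not move this estimate, which stayed at -0.339 in those fits. The replicate block gave -0.318, as did leaving out PD array 3, the only array with that replicate number. In the genome Apoa5 follows Apoa1, Apoc3 and Apoa4 in a cluster that is shared among mammals. None of these 3 was analysed here, so whether the cluster differed as a whole was not tested. The nearest measured genes on the 2 sides of Apoa5, Pafah1b2 and Cadm1, differed by 0.274 and -0.158, and neither passed.

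The sequence just before the start of Apoa5 is shown because this was the member whose level lay apart. That of Apom is shown because its arrays overlapped between the strains. That of Apobec1 is shown because this partner of Apob passed the test, as described further on. RefSeq's promoter table (GRCr8, from the BN rat) held 4 of the 6 measured genes. Each window runs from 250 bases before the annotated start to 50 after it, 5′ to 3′ on the gene's strand. It is the reference sequence, not that of PD or SHR. Apoa5 has 2 windows in the table, and the first is printed, at chr8:55457621-55457920, plus strand. Apom lies at chr20:3695368-3695667, plus strand, and Apobec1 at chr4:157487552-157487851, minus strand. Capitals mark AGGTCA (a core motif of nuclear receptors), CACGTG (the E-box) and TATAAA (the TATA box), searched on both strands.
Apoa5: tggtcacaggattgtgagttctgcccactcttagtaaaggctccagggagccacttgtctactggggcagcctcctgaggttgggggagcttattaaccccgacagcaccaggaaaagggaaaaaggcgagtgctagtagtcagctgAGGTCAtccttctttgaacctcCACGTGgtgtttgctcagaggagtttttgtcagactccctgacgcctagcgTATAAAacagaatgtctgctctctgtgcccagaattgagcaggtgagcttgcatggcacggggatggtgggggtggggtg
Apom: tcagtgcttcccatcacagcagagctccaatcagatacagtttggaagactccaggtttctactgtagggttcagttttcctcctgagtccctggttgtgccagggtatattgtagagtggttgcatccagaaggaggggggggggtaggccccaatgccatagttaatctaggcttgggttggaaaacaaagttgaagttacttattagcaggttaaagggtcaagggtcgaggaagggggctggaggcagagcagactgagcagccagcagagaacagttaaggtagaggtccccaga
Apobec1: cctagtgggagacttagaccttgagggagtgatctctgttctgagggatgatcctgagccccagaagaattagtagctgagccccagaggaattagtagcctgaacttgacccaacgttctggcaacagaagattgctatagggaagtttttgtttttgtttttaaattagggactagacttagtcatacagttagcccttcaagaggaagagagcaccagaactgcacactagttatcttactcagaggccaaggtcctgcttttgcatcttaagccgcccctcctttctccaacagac

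The Apoa5 window held 1 copy of each of the 3 motifs, which did not overlap. AGGTCA began 103 bases before the start, CACGTG 81 bases before it and TATAAA 30 bases before it. Of all 33469 windows in the table, 16.2% held AGGTCA, 6.42% held CACGTG, 14.2% held TATAAA and 0.102% held all 3. The Apom and Apobec1 windows held none of them. A match describes letters only, and its absence says only that these letters are not in that window. The 3 windows were picked from a search that also named Apoh (whose arrays overlapped too), Apon, Angptl4, Sar1b, Apoc1 and Apoe. Any windows of those genes and the second of Apoa5 are not shown, so the contrast among the 3 shown cannot be read as a pattern.

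**Figure D3:**
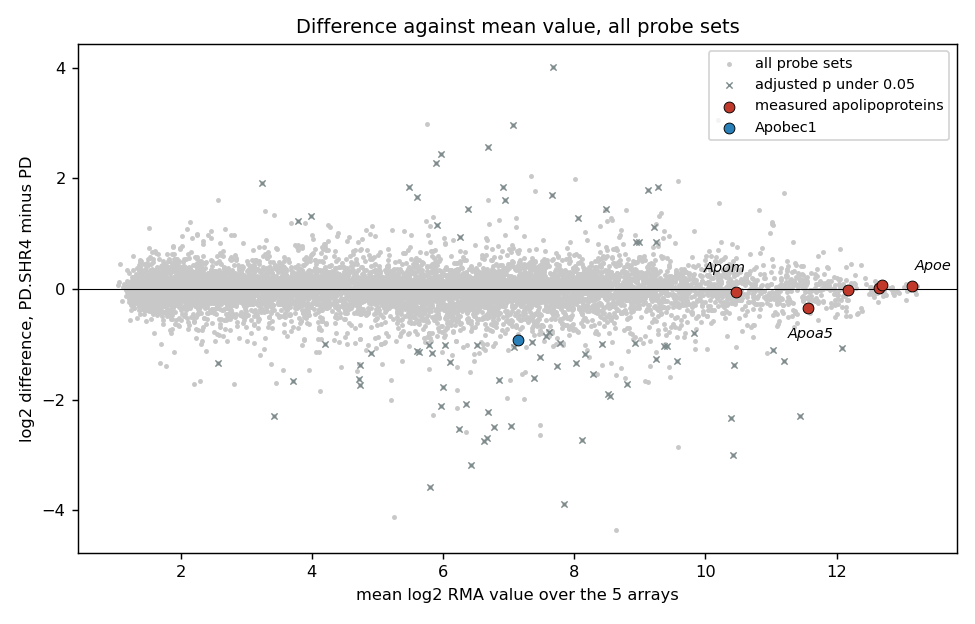
Log2 difference (PD.SHR4 minus PD) on the vertical axis against the mean log2 RMA value over the 5 arrays, for all 8797 probe sets (grey) with the 82 called ones as crosses. The 6 apolipoproteins (red) sit at the bright end close to 0, with Apoa5 the farthest at -0.339, while Apobec1 (blue) lies at -0.914.

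Around the apolipoproteins, 68 genes were measured of the 125 named in 6 lists of other lipoprotein genes. Of the 68, 2 fell, 0 rose and the rest did not pass, a share of 2.94% beside the 0.932% of all probe sets. Those that fell were Apobec1 and Angptl4. The lists were written with earlier results of these data known.

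Apobec1, the cytidine deaminase that edits Apob mRNA, fell. It measured 6.59 and 6.6 in PD.SHR4, against 7.48, 7.64 and 7.41 in PD. The gap between the strains was 0.805, more than the range within either. The log2 difference was -0.914 ± 0.125 (SE; limma, adjusted p = 0.0457), a level 0.531 times that of PD with an interval of 0.429 to 0.656. The log2 difference stayed between -0.966 and -0.832 in 13 alternative fits. Those that changed only the variance shrinkage, the probe sets kept or their averaging could not move it. The call was lost when any 1 of the 5 arrays was left out, with adjusted p of 0.0591 to 0.378, and without variance shrinkage (adjusted p = 0.197).

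Apobec1 lies on rat chromosome 4, the chromosome that the strain's name carries. Whether it is inside the SHR segment is not stated in those sources. None of the 10 named genes of the set lies on that chromosome. Macrophages express Apobec1 in mice, and the markers of these cells given above were lower in summed level in PD.SHR4. Their part in the Apobec1 value was not tested.

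The RNA-binding partners of the editing enzyme did not pass. Rbm47, chosen after its value was seen, measured 9.38 and 9.32 in PD.SHR4, against 8.88, 9.09 and 8.86 in PD, so that its arrays did not overlap either. Its log2 difference was 0.403 ± 0.127 (SE; limma, adjusted p = 0.245). A1cf, the complementation factor, also chosen after its value was seen, overlapped between the strains at a log2 difference of 0.212 ± 0.142 (SE; limma, adjusted p = 0.615).

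**Figure D4:**
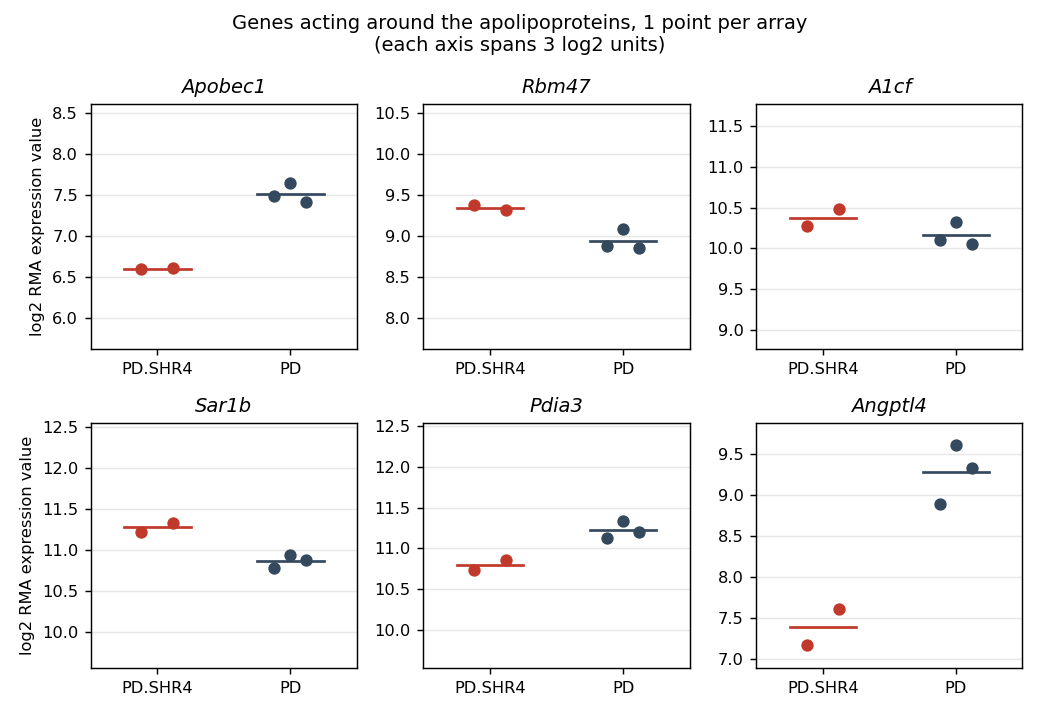
Log2 RMA expression value on the vertical axis for 6 genes that act on apolipoproteins or their particles, 1 point per array, PD.SHR4 (2 arrays, red) left and PD (3 arrays, dark) right, lines at strain means, every axis spanning 3 log2 units. Apobec1 and Angptl4 passed the test, with PD.SHR4 means of 6.595 and 7.39 and PD means of 7.51 and 9.28. Rbm47, A1cf, Sar1b and Pdia3 did not pass.

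In the list for assembly and secretion of apoB particles, 17 of 35 genes were measured, 1 fell and 16 did not pass. The median log2 difference was -0.026. Sar1b, the GTPase whose loss in humans stops chylomicrons from leaving the endoplasmic reticulum, measured 11.22 and 11.33 in PD.SHR4, against 10.78, 10.94 and 10.87 in PD. Its log2 difference was 0.416 ± 0.119 (SE; limma, adjusted p = 0.204). Its close relative Sar1a, chosen after its value was seen, differed by 0.0058, and how far the probes of these relatives bind each other's transcripts was not tested.

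Dnajb9, a co-chaperone of the endoplasmic reticulum, had a log2 difference of 0.51 (adjusted p = 0.190). The disulphide isomerase Pdia3 had -0.42 (adjusted p = 0.221). P4hb, the partner subunit of the transfer protein encoded by Mttp and chosen here after its value was seen, measured 11.05 and 11.14 in PD.SHR4, against 11.24, 11.48 and 11.38 in PD. Its arrays did not overlap, and its log2 difference was -0.27 ± 0.128 (SE; limma, adjusted p = 0.446).

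Other apolipoproteins and proteins of high density lipoprotein did not pass in any of the 8 measured of 16. Their median log2 difference was 0.097, and 7 of 8 values lay above 0, against 50% of all probe sets. Apon, apolipoprotein N, measured 11.54 and 11.47 in PD.SHR4, against 11.18, 11.29 and 11.15 in PD. These arrays did not overlap. Apon had a log2 difference of 0.30 ± 0.115 (SE; limma, adjusted p = 0.332), a level 1.23 times that of PD with an interval of 1.01 to 1.499.

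Lcat, which esterifies cholesterol on high density lipoprotein, differed by 0.201 (limma, adjusted p = 0.604). The paraoxonase Pon3 differed by 0.238 (adjusted p = 0.689). Pon1, Pon2 and Pon3 lie together on chromosome 4 and are its only measured genes in this list. Pon1 and Pon2, named for their place beside Pon3 after their values were seen, differed by 0.065 and 0.053.

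Of 5 measured lipases and lipase regulators out of 10, Angptl4, an inhibitor of lipoprotein lipase, fell and 4 did not pass. Angptl4 measured 7.16 and 7.61 in PD.SHR4, against 8.89, 9.61 and 9.33 in PD. Angptl4 had a log2 difference of -1.89 ± 0.252 (SE; limma, adjusted p = 0.0457), and the call was lost when any 1 of the 5 arrays was left out (adjusted p of 0.0578 to 0.294) and without variance shrinkage (adjusted p = 0.238). Lpl, lipoprotein lipase itself and scarce in adult hepatocytes, measured 6.02 and 5.83 in PD.SHR4, against 5.15, 5.68 and 5.27 in PD, a log2 difference of 0.556 ± 0.188 (SE; limma, adjusted p = 0.270). The lysosomal lipase Lipa and the hepatic lipase Lipc differed by 0.259 and -0.29, and neither passed. Without PD array 1 these were 0.162 and -0.458, and without PD array 2 Lipc was at -0.147.

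None of 8 measured receptors and clearance proteins out of 20 passed, with a median log2 difference of -0.087. Scarb1, which takes cholesterol ester from high density lipoprotein, measured 9.13 and 9.04 in PD.SHR4, against 8.73, 8.66 and 8.55 in PD. The arrays did not overlap, and the log2 difference was 0.436 ± 0.120 (SE; limma, adjusted p = 0.189). The nucleotide receptor P2ry13 differed by -0.547 (adjusted p = 0.190) and the endocytic receptor Lrp2 by -0.628 (adjusted p = 0.367). None of 5 measured transporters out of 8 passed. Abca1, which lipidates apolipoprotein A-I, differed by 0.334 (limma, adjusted p = 0.423), Abca3 by -0.448 (adjusted p = 0.253) and Abca7 by 0.070 (adjusted p = 0.901).

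**Figure D5:**
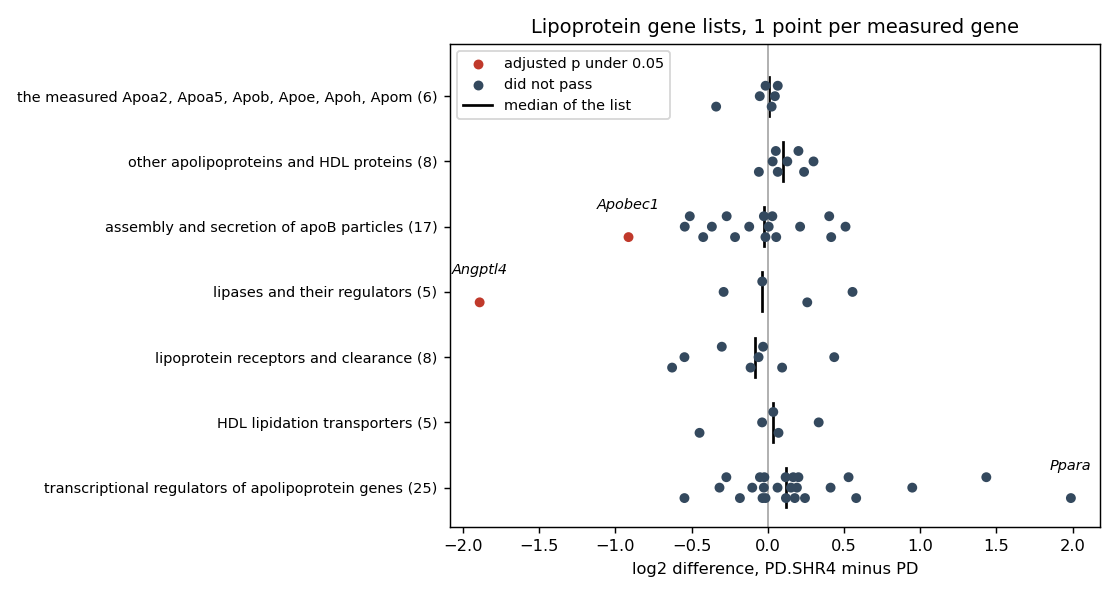
Log2 difference (PD.SHR4 minus PD) on the horizontal axis, 1 point per measured gene, for the 6 apolipoproteins and for 6 lists of genes that act around them, with the number measured in brackets. Red points passed the test and vertical bars are medians. The apolipoproteins span -0.339 to 0.065, and the regulators span -0.547 to 1.989.

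Of 36 listed transcriptional regulators of apolipoprotein genes, 25 were measured and none passed, with a median log2 difference of 0.119. Their median difference in size was 0.183, beside 0.155 over all probe sets. Ppara, the fatty acid receptor, measured 8.98 and 9.42 in PD.SHR4, against 7.23, 7.71 and 6.70 in PD (log2 difference 1.99 ± 0.313 SE; limma, adjusted p = 0.0606). It passed in 6 of 13 alternative fits. Those fits called 100 to 819 probe sets in all, against 82 in the main fit. No fit without a PD array called it. The forkhead factor Foxa3 differed by 0.948 (adjusted p = 0.106) and Foxa1 by -0.547 (adjusted p = 0.119).

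A further 3 regulators were chosen after their values were seen. Hnf4a, the main hepatocyte activator of apolipoprotein genes, measured 10.59 and 10.66 in PD.SHR4, against 10.51, 10.51 and 10.52 in PD, a log2 difference of 0.117 ± 0.109 (SE; limma, adjusted p = 0.732). Creb3l3, which in mice raises Apoa4 and Apoa5, differed by 0.58 (adjusted p = 0.161), with PD.SHR4 values of 10.48 and 10.55 against PD values of 10.03, 9.73 and 10.05. Nr1d1, the clock repressor REV-ERB alpha, which represses the human APOA5 promoter, measured 9.70 and 9.59 in PD.SHR4, against 8.49, 8.79 and 7.35 in PD. Its log2 difference was 1.43 ± 0.422 (SE; limma, adjusted p = 0.216). The relation of any of these to the Apoa5 value was not tested.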

How the data were processed

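Gene expression was measured in liver RNA of 2 rat strains on 5 arrays (2 PD.SHR4, 3 PD), grouped by the source labels. The authors' deposited values are log2 expression, made with RMA in Affymetrix Expression Console (core-gene analysis), per the labels. RMA corrects background, normalises arrays by quantiles and summarises probes. The submitters' processing notes also name Partek. Software versions, the annotation release and the build were not given in the sources used here. With so few arrays, their number limits the precision.

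Names came from the platform annotation in GEO. Of 8797 probe sets, 7603 had 1 symbol, 409 several and 785 none, and gene IDs of 7584 matched RefSeq (GRCr8), which was used for symbols, gene order and promoter sequence. The brightest probe set stood for each of 14 genes with several. PD.SHR4 minus PD was tested two-sided in R 4.3.3 by limma 3.58.1 (lmFit, then eBayes) without covariates. P-values were Benjamini-Hochberg adjusted over the whole table and called under 0.05. The fit was tested on simulated arrays. Named are all measured members, every called gene of the other lists and up to 3 further genes of each by smallest p, and Apoc1 as the neighbour of Apoe. Outside that rule, and with their values seen, stand Rbm47, A1cf, P4hb, Sar1a, Pon1, Pon2, Hnf4a, Creb3l3 and Nr1d1. The genome neighbours Nr1i3, B4galt3, Tomm40, Bag6, G4, Pafah1b2 and Cadm1 also stand outside it, with their values seen. The members and lists were chosen with earlier results of these data known. The lists also held markers of hepatocytes, macrophages, enterocytes, stellate cells, endothelium, cholangiocytes, lymphocytes and erythroid cells. Other fits tried were median centring, a further quantile normalisation, array weights, omission of single arrays, a block for the replicate number, no shrinkage of variances, robust shrinkage with an intensity trend, removal of the dimmest 25% of probe sets, and averaging a gene's probe sets.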

Additional observations from a re-analysis of the deposited data

How the results depend on the processing

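The number of probe sets called was 0 to 55 when 1 array was left out (at an unadjusted p under 0.05, 737 and 710 passed without PD.SHR4 array 1 and 2, where the count was 0 and the spread of the lone PD.SHR4 array was taken from PD). Without PD array 1 it was 28 and without PD array 3 it was 18. It was 2 without variance shrinkage, 151 with an intensity trend and robust shrinkage together, 149 without the dimmest probe sets and 819 with array weights. The replicate number as a block gave 163. The numbers are not said to pair arrays, and deviations from the strain means correlated at 0.0498 for number 1 and 0.0819 for number 2.

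Apoa5 passed with array weights only (-0.372). Apob turned to 0.0227 without PD.SHR4 array 1, 0.0191 without PD array 2, 0.0521 after quantile normalisation, 0.0389 after median centring and 0.00422 with array weights, and ranged from -0.052 to 0.0227 over single arrays left out. Apom turned to 0.0378 without PD array 2, 0.000703 after median centring and 0.0503 with array weights, and ranged from -0.117 to 0.0378. Abca7 turned to -0.00554 without PD array 2 and ranged up to 0.163 over single arrays left out. Apoa2, Apoa5, Apoe and Apoh kept their direction in all 13 fits. Those without shrinkage, with trend and robust shrinkage, without dim probe sets or with probe sets averaged could not move these differences. Over single arrays left out Apoh ranged from 0.0001 (without PD array 1) to 0.0679 (PD array 2) and Apoa2 from 0.0151 to 0.115 (the same arrays). Without PD array 1 or 2, Lipc was -0.458 or -0.147, Pon3 0.109 or 0.407 and Lrp2 -0.794 or -0.382, Lipa was 0.162 without PD array 1 and Lcat 0.12 without PD array 2. Abca3 was -0.268 or -0.627 without PD.SHR4 array 1 or 2. The 6 apolipoproteins gave 1 call with array weights and 1 at an unadjusted p under 0.05, and 0 otherwise.

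With single arrays left out, list medians ranged from -0.0186 to 0.0445 for the 6 apolipoproteins (PD arrays 1 and 2), -0.158 (PD array 1) to -0.0343 for assembly, -0.147 to 0.0807 for lipases (PD arrays 2 and 1), -0.15 (PD array 2) to -0.0224 (PD.SHR4 array 2) for receptors and -0.0264 (PD array 1) to 0.0727 (PD.SHR4 array 2) for transporters. After median centring the 6 apolipoproteins had 0.0588 and the assembly list 0.0279. The median of the other apolipoproteins was 0.0389 to 0.142 with 1 array left out, 0.0389 with the replicate block and 0.15 after median centring. The assembly list and the lipase list each had 0 calls without any 1 array and without variance shrinkage. With array weights calls numbered 4 in the assembly list, 2 in the lipase list, 2 among receptors, 5 among regulators, 6 among macrophage markers, 3 among lymphocyte markers and 1 in each of the other measured marker lists. That fit called 819 of all 8797 probe sets. Macrophage markers also had 1 call with the intensity trend and robust shrinkage, and 1 without the dimmest probe sets. Regulators had 1 call, Ppara, with the replicate block, the intensity trend with robust shrinkage, no dim probe sets, a further quantile normalisation and median centring. The causes of these changes were not tested. Some of the fits also held fewer arrays or probe sets.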

Other observations

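Markers of other cell types gave no call in the main comparison. Of 5 measured enterocyte markers, a cell type that also makes apolipoproteins, all 5 had log2 differences above 0, with a median of 0.105. Mep1a, 1 of the 5 (0.018), lay below the lower quartile on every array. Cdh17 and Anpep lay above the upper quartile on every array. Whether these genes stand for enterocytes in liver tissue was not tested. The intestinal fatty acid binding protein gene Fabp2 measured 5.84 and 5.79 in PD.SHR4, against 5.18, 4.97 and 5.36 in PD (log2 difference 0.648, limma, adjusted p = 0.134). Of 8 stellate cell and fibroblast markers, 5 lay below 0 (median -0.28), and of 6 lymphocyte markers, 4 lay below 0 (median -0.275), with the leukocyte gene Ptprc at -0.683 (adjusted p = 0.0832). Lum among the stellate markers (-0.442) and Cd2 among the lymphocyte markers (0.196) were also below the lower quartile on every array. Both measured erythroid markers lay below 0 (median -0.437), and the cholangiocyte markers Krt19 and Epcam differed by 0.50 and -0.227. None of the 7 endothelial markers listed was measured under its name.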
